A study of Homo sapiens with 10 samples.

Results

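The replication-dependent histone genes are the clustered genes that supply the bulk of H1, H2A, H2B, H3 and H4 while DNA is being copied. They were taken as the RefSeq protein-coding genes (GRCh38.p14) whose symbols follow the clustered-gene pattern of each class (H1-1 to H1-6, and the H2AC, H2BC, H3C and H4C symbols). This gave 69 genes of 19970 protein-coding genes on chromosomes 1 to 22 and X. There were 6 genes of class H1, 17 of H2A, 18 of H2B, 13 of H3 and 15 of H4. On chromosome 6, 32 lay in the proximal part of the cluster, 5 in its middle part, 16 in its distal part and 2 (H2AC1 and H2BC1) apart from these. Chromosome 1 held 11 in its major cluster and 2 in its minor cluster, and H4C16 stood alone on chromosome 12.

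The study mapped RNA-DNA hybrids by DRIP-seq in U2OS, a human osteosarcoma cell line, in cells carrying TDP1 H493R (labelled SCAN1) and in WT cells. Nucleic acids from nuclei that were not crosslinked were sonicated and precipitated with S9.6, an antibody against RNA-DNA hybrids. The 5 libraries were SCAN1#1 replicates 1 and 2, SCAN1#2 replicate 2, and WT replicates 1 and 2, with no treatment or time course in the labels. Replicate 1 libraries came from experiment 1 and replicate 2 libraries from experiment 2, and the labels give different lots of the S9.6 antibody for the experiments. SCAN1#1 therefore supplied 2 of the 3 SCAN1 libraries, and the labels do not tell how either SCAN1 line was made or whether it is a single clone. Whether replicates were grown separately is not in the labels, so p-values measure only the spread between these libraries, which may be technical. The 5 input samples were not analysed here.

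TDP1 frees DNA ends from trapped topoisomerase I, and the H493R change is the mutation of the inherited disease SCAN1, spinocerebellar ataxia with axonal neuropathy. An RNA-DNA hybrid forms when RNA pairs with a DNA strand behind the polymerase, and the displaced strand completes an R-loop. Replication-dependent histone genes are short, lack introns, are transcribed strongly in S phase in histone locus bodies, and end in a stem-loop instead of a poly(A) tail. H2A and H2B genes often form head-to-head pairs that share the DNA between their starts.

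The measure was coverage, the percent of a gene, with 1 kb added at both ends, that lay under the authors' peaks. The lists held 63456, 110745 and 89932 peaks in SCAN1#1 replicates 1 and 2 and SCAN1#2 replicate 2, against 82545 and 89445 in WT replicates 1 and 2, and no read totals were given, so depth is unknown. Each list was therefore cut to its 63456 strongest peaks by the authors' -log10 p, which covered 41.4, 46.5 and 40.7 Mb in the SCAN1 libraries, against 42.7 and 43.9 Mb in the WT libraries. A set of 16 osteoblast and mesenchymal marker genes had mean coverages of 10.5%, 8.5% and 7.0% in SCAN1, against 14.6% and 11.2% in WT. A set of 15 marker genes of other lineages had 1.2% in each SCAN1 library, against 0.9% and 1.1% in WT.

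To show what the DNA at these genes looks like, promoter windows from RefSeq (GRCh38.p14) are printed for 6 genes, from 250 bases before the gene start to 50 bases after it. H1-4, H1-2 and H2BC11 lay under strong peaks in all 5 libraries, and H2AC6 did so in 4, with a 9.37-fold peak in WT replicate 2. H1-3 and H2BC9, of the same classes, had no peak within 1 kb in any library. Capitals mark, on either strand, CCAAT (the NF-Y box), TATAAA (the TATA box), ATTTGCAT (the octamer bound by OCT1 in histone promoters) and AAACACA (the H1 box). The windows are H1-4 at chr6:26156079-26156378 (plus strand), H1-2 at chr6:26056421-26056720 (minus strand), H1-3 at chr6:26234938-26235237 (minus strand), H2AC6 at chr6:26123922-26124221 (plus strand), H2BC11 at chr6:27132746-27133045 (minus strand) and H2BC9 at chr6:26251364-26251663 (plus strand), each given along its own gene's strand.
H1-4: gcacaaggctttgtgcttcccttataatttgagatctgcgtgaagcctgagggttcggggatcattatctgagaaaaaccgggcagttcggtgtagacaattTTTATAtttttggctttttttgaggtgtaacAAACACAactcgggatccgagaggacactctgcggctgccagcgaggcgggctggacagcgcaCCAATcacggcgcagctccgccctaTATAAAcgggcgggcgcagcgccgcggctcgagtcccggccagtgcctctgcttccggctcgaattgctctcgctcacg
H1-2: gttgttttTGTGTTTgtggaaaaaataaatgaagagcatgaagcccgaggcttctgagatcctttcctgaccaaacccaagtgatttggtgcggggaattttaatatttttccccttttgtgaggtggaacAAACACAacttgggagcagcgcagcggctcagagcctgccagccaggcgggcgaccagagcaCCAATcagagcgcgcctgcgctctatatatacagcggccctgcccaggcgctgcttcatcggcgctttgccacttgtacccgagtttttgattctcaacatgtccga
H1-3: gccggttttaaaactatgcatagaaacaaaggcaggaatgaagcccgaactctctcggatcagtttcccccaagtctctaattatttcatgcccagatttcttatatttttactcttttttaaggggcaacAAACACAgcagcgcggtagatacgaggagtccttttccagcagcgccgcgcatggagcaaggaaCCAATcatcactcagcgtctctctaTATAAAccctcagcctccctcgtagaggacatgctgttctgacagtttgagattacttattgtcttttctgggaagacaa
H2AC6: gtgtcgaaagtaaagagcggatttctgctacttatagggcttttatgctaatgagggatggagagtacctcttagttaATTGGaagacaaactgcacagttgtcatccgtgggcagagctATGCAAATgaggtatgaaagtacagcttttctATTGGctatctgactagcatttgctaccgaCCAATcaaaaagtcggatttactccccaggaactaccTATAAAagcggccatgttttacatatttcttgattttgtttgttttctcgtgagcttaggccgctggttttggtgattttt
H2BC11: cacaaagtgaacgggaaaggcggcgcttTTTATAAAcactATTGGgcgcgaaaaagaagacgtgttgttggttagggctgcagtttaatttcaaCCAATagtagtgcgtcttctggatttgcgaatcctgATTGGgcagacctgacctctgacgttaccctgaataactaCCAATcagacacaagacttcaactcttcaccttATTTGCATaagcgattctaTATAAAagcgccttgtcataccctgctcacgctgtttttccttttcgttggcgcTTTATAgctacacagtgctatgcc
H2BC9: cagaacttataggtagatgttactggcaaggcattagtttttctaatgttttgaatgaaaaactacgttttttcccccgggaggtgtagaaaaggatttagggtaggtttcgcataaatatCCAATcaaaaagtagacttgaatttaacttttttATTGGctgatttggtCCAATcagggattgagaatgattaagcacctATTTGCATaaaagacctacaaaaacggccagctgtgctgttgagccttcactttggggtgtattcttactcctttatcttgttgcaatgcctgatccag

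Of the 69 genes, 64 had a promoter window in the table and H4C1, H4C3, H2AC12, H3C11 and H3C12 were not matched. CCAAT was found in 54 of the 64 windows (84.4%), against 36.3% of all 15812 protein-coding windows. TATAAA was found in 42 (65.6%), against 9.64% of all windows. ATTTGCAT was found in 26 (40.6%), against 1.70% of all windows, and 14 of the 18 H2B windows and 11 of the 16 H2A windows held it. AAACACA was found in 9 (14.1%), against 4.25% of all windows, and all 6 H1 windows held it. The median GC content of the histone windows was 43.2%, against 62.7% over all windows and 59.7% over the 68 ribosomal protein genes with a window. Among H2A and H2B genes the octamer was not more frequent in covered genes, and the difference was not tested. It was in 14 of the 19 with a peak in all 5 libraries and in 5 of the 5 with none. TATAAA was in 14 of these 19 and in 3 of these 5. Windows of head-to-head pairs, such as H2AC1 and H2BC1 or H2BC4 and H2AC6, overlap and hold the same octamer, so the genes are not separate observations. Over all classes, which differ in the octamer, it was in 15 of the 27 with a peak in all 5 libraries and in 5 of the 20 with none. The H1 box was in both H1-4 and H1-3. A match is a description of the letters, not of a bound site.

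Peaks reached a part of the family only. With the lists as deposited, 29 of the 69 genes had a peak within 1 kb in all 5 libraries, 22 had none in any library, and 18 had one in 1 to 4 libraries. H2A genes were reached most often, with 11 of 17 peaked in all 5 libraries and 1 of 17 in none. H2B genes followed with 9 of 18 in all and 4 of 18 in none. H1 genes split into 3 of 6 and 3 of 6. H4 genes had 4 of 15 in all and 5 of 15 in none, and H3 genes 2 of 13 in all and 9 of 13 in none. Of the 4 H4 genes, H4C15 had its strongest summits 15644 to 17654 bases from the start of a long record. The mean coverage over the 5 libraries was 40.2% for H2A, 31.5% for H1, 23.9% for H2B, 15.9% for H4 and 10.1% for H3 genes.

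By position, the 5 genes of the middle part of the chromosome 6 cluster averaged 67.1%, the 32 proximal genes 24.8% and the 16 distal genes 16.5%. The 11 genes of the major chromosome 1 cluster averaged 20.4%, the 2 of the minor cluster 5.49%, and H4C16 on chromosome 12 had 43.7%. H2AC1 and H2BC1, the outlying pair, had no peak in any library.

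**Figure D1:**
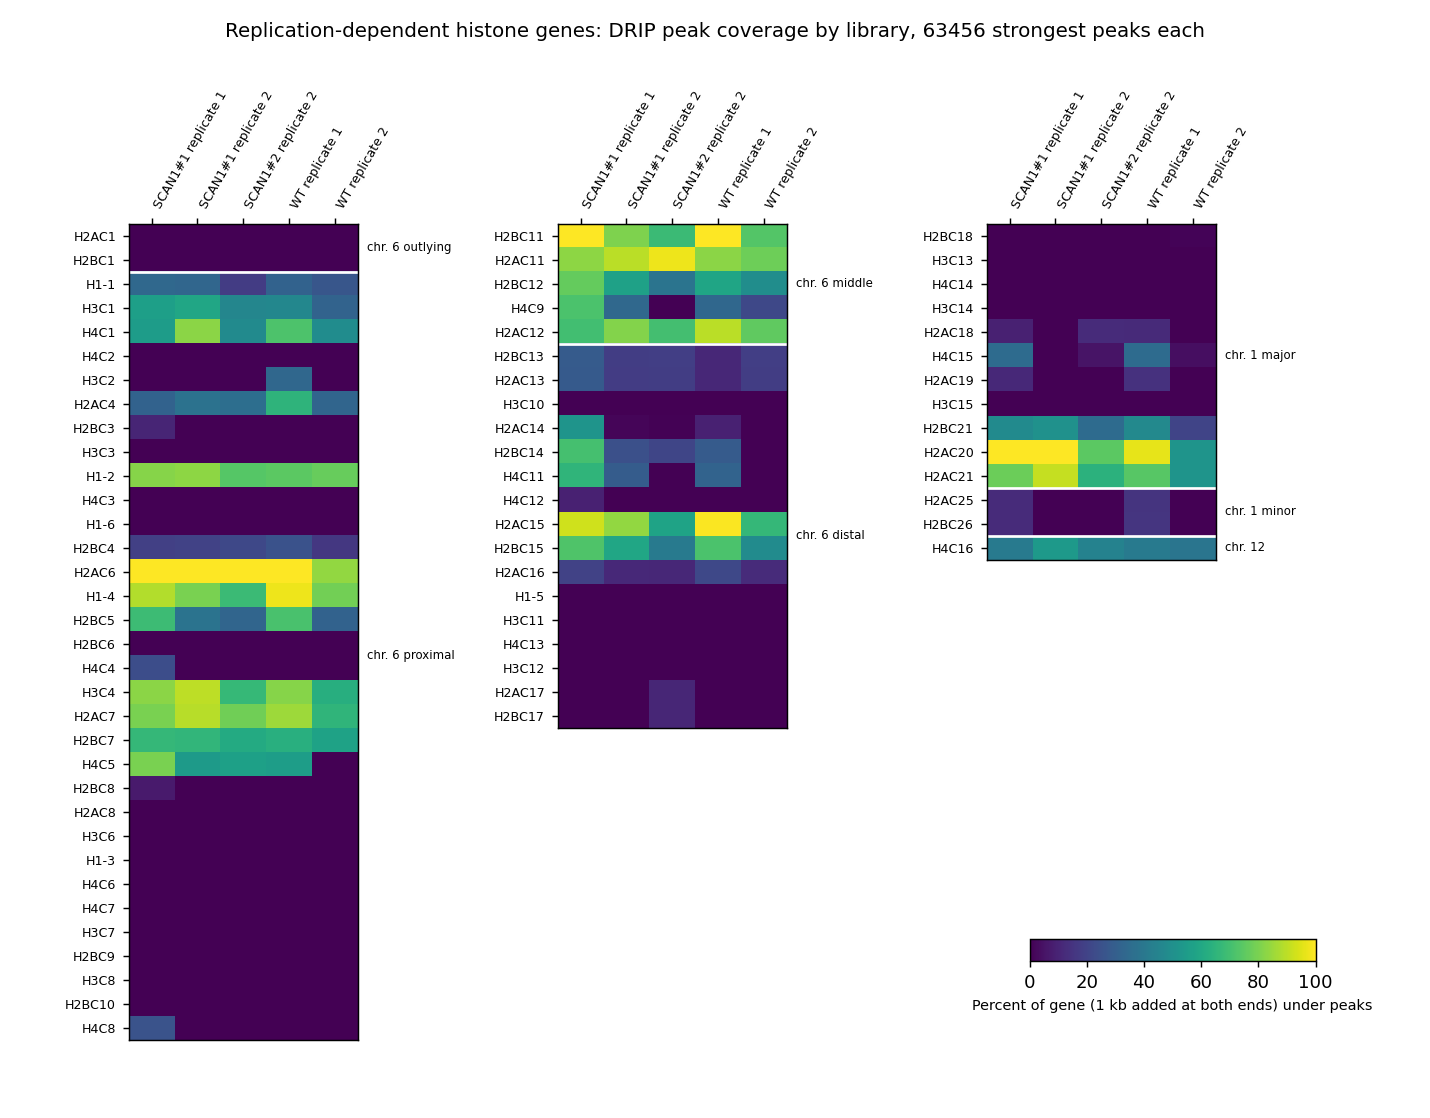
Percent of each histone gene, with 1 kb added at both ends, under the 63456 strongest peaks of each library, with genes in genome order within each cluster and the SCAN1 libraries left of the WT libraries. Bright rows such as H2AC6, H1-4 and H2AC11 are bright in all 5 libraries, and dark rows, such as H3C6 to H2BC10, are dark in all 5.

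Over all 69 genes, mean coverage was 30.4%, 24.9% and 20.4% in SCAN1#1 replicates 1 and 2 and SCAN1#2 replicate 2, against 27.5% and 18.0% in WT replicates 1 and 2. The mean over all protein-coding genes was 9.08%, 7.75% and 6.54% in the SCAN1 libraries, against 8.88% and 6.78% in the WT libraries. Replicate 1 libraries were the highest of their line on both measures. The medians show the split within the family: 12.2%, 0% and 0% of the histone genes' length in SCAN1, against 10.9% and 0% in WT.

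A smaller share of the histone genes than of all protein-coding genes had any peak, although their mean coverage was higher. In the equal lists, 40, 30 and 32 histone genes had a peak in the SCAN1 libraries (58.0%, 43.5% and 46.4%), against 36 and 28 in the WT libraries (52.2% and 40.6%). Of all protein-coding genes, 61.1%, 64.9% and 65.6% had one in SCAN1, against 62.4% and 63.7% in WT. Gene length differs greatly between these sets, since the median histone gene spans 494 bases. The 463 other protein-coding genes of 1 kb or less, a class set after the data were seen, had a peak in 15.1%, 14.7% and 15.6% of cases in SCAN1, against 14.04% in both WT libraries. Their mean coverage was from 4.8% to 5.83% across the 5 libraries. The 86 cytosolic ribosomal protein genes, which are also strongly transcribed, averaged 62.6%, 59.6% and 55.5% in SCAN1, against 61.9% and 55.3% in WT.

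The strongest peaks near histone genes lay over linker histone genes, and they ranked among the first 10 of each list. H1-4, which encodes histone H1.4, shared one peak with its neighbour H2BC5 in all 5 libraries, and the peaks joined over libraries spanned chr6:26152953-26165609. Its fold enrichment, which is the authors' own value for each peak, was 240, 262 and 179 in SCAN1#1 replicates 1 and 2 and SCAN1#2 replicate 2, against 165 and 246 in WT replicates 1 and 2. By this value the peak stood between rank 1 and rank 6 of its list in every library, and it was rank 1 in SCAN1#1 replicate 2 and WT replicate 2. H1-2, which encodes histone H1.2, had a peak of its own at chr6:26052527-26057004 with a fold enrichment of 254, 231 and 150 in SCAN1, against 150 and 192 in WT, at ranks 1 to 10. Coverage of the H1-4 gene itself, without the added ends, was 100% in all 5 libraries, and the same held for H1-2. The H1-1 gene itself was covered to 92.1%, 100% and 64.9% in SCAN1, against 80.3% and 86.5% in WT. With the added ends, H1-1 had 33.6%, 33.1% and 17.8% in SCAN1, against 31.4% and 26.9% in WT. H1-3, H1-5 and H1-6 had no peak.

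The next strongest peaks lay over head-to-head H2A and H2B genes. H2AC6 and H2BC4 lay under a peak region at chr6:26121712-26127127 with a fold enrichment of 110, 147 and 117 in SCAN1, against 112 and 92.1 in WT, and a single peak reached both genes in 4 of the 5 libraries. In WT replicate 2 the 92.1-fold peak ended before the start of H2AC6, which lay under a separate 9.37-fold peak. H2AC6 was the most covered histone gene, with 100% in each SCAN1 library, against 100% and 83.7% in WT. H2BC4 had 19.0%, 19.7% and 21.6% in SCAN1, against 25.2% and 16.2% in WT, over a RefSeq gene record of 10757 bases that the peak reached at its start. H2BC12 and H2AC12, in the middle part of the cluster, shared peaks of 40.9-fold to 56.3-fold in all 5 libraries. H2BC11 and H2AC11 shared peaks of 13.6-fold to 25.4-fold in all 5.

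On chromosome 1, H2AC20 and H2AC21 shared a peak in all 5 libraries, of 12.3-fold to 25.8-fold. H2BC21 lay under the same peak in 4 of the libraries, and under a separate peak of the region chr1:149885552-149888749 in WT replicate 2. H2AC7, H2BC7 and H3C4 shared peaks of 17.1-fold to 24.1-fold at chr6:26197904-26200166. The RefSeq record of H3C4 contains that of H2AC7, so the coverage of H3C4 is partly that of its neighbour. The second start that RefSeq gives H3C4, at chr6:26197237-26197536, had 89.7%, 100% and 0% of its window under peaks in SCAN1, against 58.0% and 0% in WT. In all, 7 pairs formed from 11 genes lay under a shared peak in all 5 libraries. Peaks carry no strand, so a shared peak cannot be assigned to either gene.

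**Figure D2:**
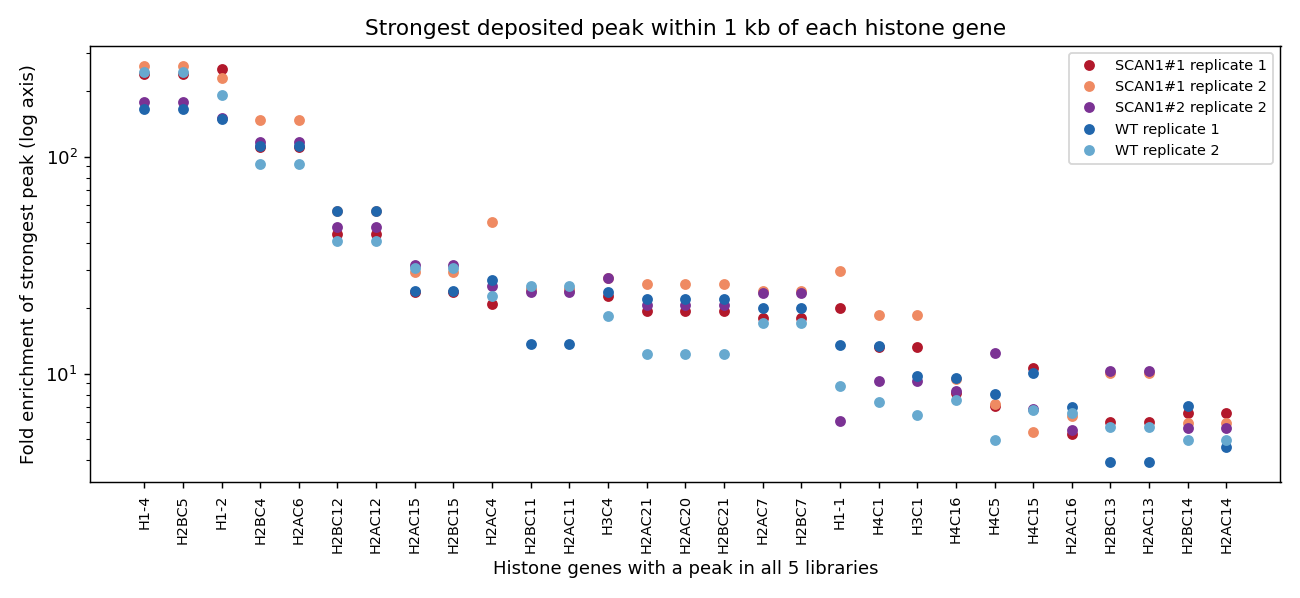
Fold enrichment (the authors' value, log axis) of the strongest deposited peak within 1 kb of each of the 29 histone genes with a peak in all 5 libraries, one point per library. H1-4, H2BC5, H1-2, H2BC4 and H2AC6 stand above the rest, and genes under the same peak show the same points.

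Among the most covered genes, H2AC11 had 83.0%, 89.5% and 97.4% in SCAN1, against 82.8% and 77.7% in WT. H2BC11 had 100%, 80.8% and 68.1% in SCAN1, against 100% and 73.1% in WT. H1-4 had 88.4%, 80.1% and 68.1% in SCAN1, against 97.4% and 78.8% in WT. Replicate 1 libraries were the highest for H2BC11 and H1-4 in both genotypes, whereas H2AC11 did not follow the experiments. H2AC15 had 92.6%, 83.8% and 57.9% in SCAN1, against 99.5% and 66.7% in WT. H2AC7 had 79.9%, 89.2% and 78.2% in SCAN1, against 85.3% and 65.6% in WT. H1-2 was the steadiest of these, with 81.8%, 82.9% and 73.8% in SCAN1, against 75.0% and 76.8% in WT.

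The 22 genes without a peak in any library were 9 H3 genes (H3C3, H3C6, H3C7, H3C8, H3C10, H3C11, H3C13, H3C14 and H3C15), 5 H4 genes (H4C3, H4C6, H4C7, H4C13 and H4C14), 4 H2B genes (H2BC1, H2BC6, H2BC9 and H2BC10), 3 H1 genes (H1-3, H1-5 and H1-6) and H2AC1. H1-6 and the pair H2AC1 and H2BC1 are known for expression in the testis. The nearest peak of any library was between 1121 bases (H4C13) and 21863 bases (H4C6) away. The longest run of neighbours without a peak held 8 genes, from H3C6 to H2BC10, in 49235 bases at chr6:26224178-26273412. Between these genes the lists as deposited held 1, 1 and 0 peaks in the SCAN1 libraries, against 0 and 1 in the WT libraries. Histone coding sequences of a class are nearly alike, and how reads that fit several places were handled is not stated in the labels or processing notes used here. The absence of a peak is therefore not a measure of the absence of hybrids. Of all pairs among the 64 promoter windows, compared with shifts of up to 10 bases, 4 pairs of separate loci were over 90% identical: H4C14 and H4C15, H3C14 and H3C15, and H2AC18 and H2AC19 (100% each), and H4C11 and H4C12 (98.3%). H3C14, H3C15 and H4C14 of these had no peak. The H4C15 window, too, had 0% under peaks in all 5 libraries, and the peaks of H4C15 lay far from its start.

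Along the genes, summits did not sit at the same place relative to the start in all genes. Among the 27 genes with a known strand and a peak in all 5 libraries, the median summit lay upstream of the start in 10, inside the gene in 9 and beyond its end in 8. It ranged from -1299 to 16549 bases from the start. Genes under a shared peak can count the same summit, as H2AC11 (457 bases) and H2BC11 (-705) did. H1-1, H1-2, H1-4, H2AC7, H2AC11 and H2AC13 had it between 423 and 493 bases. H2AC20 and H2AC21, counted as beyond, had it at 528 and 519 bases in genes of 494 and 497 bases. For the histone genes of 1 kb or less with a mean coverage of at least 2% (33 with a known strand), the 1 kb upstream was covered to 48.1%, 35.1% and 29.2% in SCAN1, against 40.6% and 25.7% in WT. The gene itself was covered to 51.5%, 44.9% and 36.9% in SCAN1, against 45.7% and 36.5% in WT. The 1 kb downstream was covered to 48.2%, 39.8% and 33.8% in SCAN1, against 43.3% and 25.7% in WT. The gene itself was the most covered zone in all 5 libraries, and the 3 zones differed by less than the libraries did.

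H4C5 shows why the added ends matter: on average its upstream kilobase was 49.7% covered, the gene 5.83% and its downstream kilobase 66.98%. H2AC4 was covered upstream (89.7%) and little in the gene (7.02%). At 500 bases upstream of the start, 53.8%, 48.7% and 43.6% of 39 histone genes were under a peak in SCAN1, against 43.6% and 38.5% in WT. The corresponding shares of 6792 other genes were 24.0%, 22.5% and 21.0% in SCAN1, against 24.1% and 19.7% in WT. At 500 bases downstream of the start, the histone genes had 64.1%, 56.4% and 51.3% in SCAN1, against 64.1% and 46.2% in WT. The other genes had 41.8%, 42.0% and 43.0% there in SCAN1, against 39.8% and 36.1% in WT. Both sets thus had the higher share at 500 bases downstream than at 500 bases upstream in every library. All of these genes had passed the 2% filter, so the levels describe covered genes only.

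**Figure D3:**
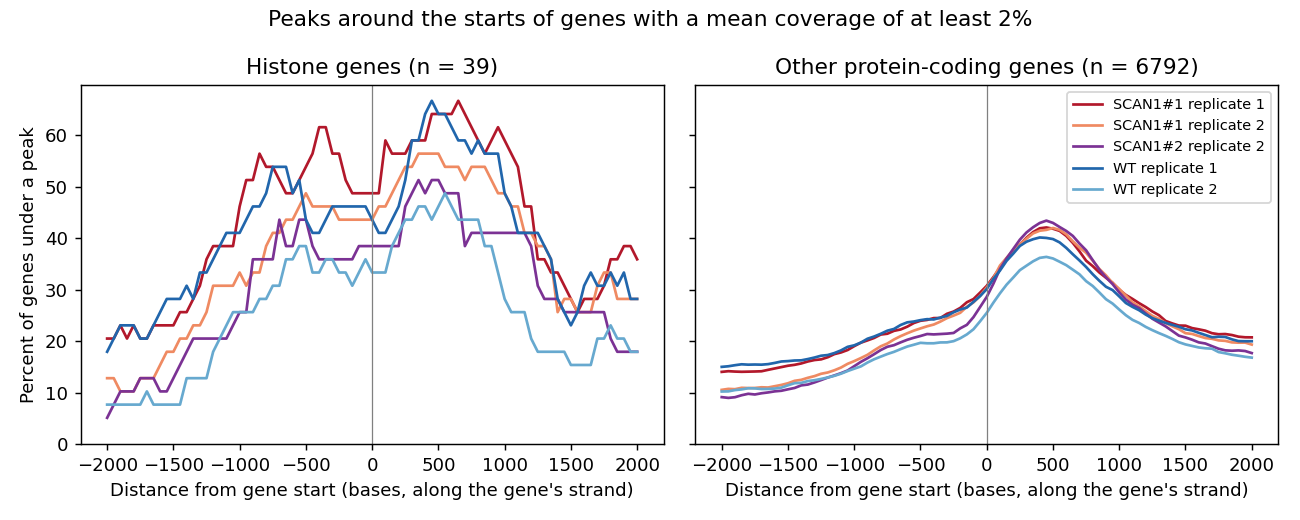
Percent of genes under a peak by distance from the gene start along the gene's strand, for 39 histone genes (left) and 6792 other protein-coding genes (right) with a mean coverage of at least 2%, one line per library. The other genes peak downstream of the start, while the histone genes are covered on both sides of it in every library.

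SCAN1 was compared with WT over the 8471 protein-coding genes with a mean coverage of at least 2%, 41 of them histone genes, in limma with Benjamini-Hochberg adjustment over all genes tested. No histone gene passed the test. Among the 41, 0 were called higher and 0 lower at an adjusted p of 0.05, against 0.0% of all genes tested in each direction. At an unadjusted p of 0.05, 0 histone genes were higher, against 1.94% of all genes tested, and 0 were lower, against 1.55%. By sign alone, coverage was higher in SCAN1 for 26 of the 41 (63.4%), against 51.5% of all genes tested. It was lower for 15 (36.6%), against 48.5%. The sign was set by the filter for 6 of these genes, which were at 0% in every library of one genotype: H2BC3, H4C4, H4C8, H2AC17 and H2BC17 in WT, and H3C2 in SCAN1. Without such genes, a choice made after the data were seen, 21 of 35 were higher, against 50.8% of all genes, and 14 were lower, against 49.2%. With experiment as a block, 2 of the 41, H2BC14 and H4C5, were higher in SCAN1 at an unadjusted p of 0.05 (4.88%, against 3.52% of all genes tested), 0 were lower, against 2.60%, and 0 passed after adjustment. The SCAN1 libraries lay wholly above the WT libraries for 1 histone gene, H2AC11 (2.44%, against 9.48% of all genes tested), and wholly below for 0, against 6.86%. With 3 libraries against 2, an exact permutation test of a single gene cannot give a p below 0.1.

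The mean coverage of the 41 genes was 42.3% ± 8.2 in SCAN1 (SD, n = 3) and 38.3% ± 11.4 in WT (SD, n = 2). The mean difference, SCAN1 minus WT, was 3.99 percentage points and the median 3.62, against -0.137 and 0.080 over all genes tested. Set against the WT library of the same experiment, the 41 genes differed on average by 4.36 in SCAN1#1 replicate 1, by 11.6 in SCAN1#1 replicate 2 and by 4.04 in SCAN1#2 replicate 2. Over all genes tested, these differences were 0.510, 2.26 and -0.615. Both comparisons of experiment 2 use WT replicate 2, the library with the lowest coverage of histone genes. The difference rested on single libraries: it was -0.227 without SCAN1#1 replicate 1 and -4.06 without WT replicate 2. With experiment as a block it was 6.34, and over the 35 genes covered in both genotypes 4.37. Of those 35 genes, 5 of 6 in class H4, 8 of 14 in H2A, 5 of 10 in H2B, 2 of 2 in H3 and 1 of 3 in H1 had the higher coverage in SCAN1, and 0 of them passed the test.

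In the equal lists, H4C5 had the largest difference that kept its sign in every comparison within an experiment. Its coverage was 79.8%, 54.4% and 56.8% in SCAN1, against 55.7% and 0% in WT, so that one WT library overlapped the SCAN1 range. The difference was 35.9 percentage points (SE 19.4, limma adjusted p = 1.0). H2BC14 had 70.4%, 24.5% and 21.1% in SCAN1, against 28.7% and 0% in WT, a difference of 24.3 (SE 18.4, limma adjusted p = 1.0). For both genes the WT library at 0% was replicate 2, and this value came from the list cut to equal length. In the lists as deposited, H4C5 had 17.9% in WT replicate 2, and its difference was 26.9. H2BC14 had 34.8% and 21.1% in the SCAN1 libraries of experiment 2, against 41.8% in WT replicate 2, so the sign within that experiment turned, and its difference over all libraries was 6.85. With 1 library left out, the difference of H4C5 was between 8.02 (without WT replicate 2) and 63.7 (without WT replicate 1), and that of H2BC14 between 8.45 (without SCAN1#1 replicate 1) and 38.7 (without WT replicate 1). Counted over the gene alone, without the added ends, H4C5 differed by 9.71. H3C1 had 56.5%, 59.4% and 46.0% in SCAN1, against 46.3% and 31.9% in WT, a difference of 14.8 (SE 10.3). The SCAN1#2 value lay just below that of WT replicate 1.

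In the equal lists, H2AC20 had 99.8%, 100% and 74.7% in SCAN1, against 96.2% and 51.7% in WT, a difference of 17.5 (SE 15.2). In the lists as deposited, WT replicate 2 had 74.7% of H2AC20, the same as SCAN1#2, so its constant sign rested on the cut. H2AC21, under the same peak, had 77.6%, 91.3% and 64.3% in SCAN1, against 74.0% and 51.7% in WT, a difference of 14.9 (SE 11.3). These neighbours are thus not separate observations. H2AC16 was the only tested histone gene lower in SCAN1 in all 3 comparisons within experiments, with 19.8%, 11.6% and 10.999% in SCAN1, against 21.6% and 12.4% in WT, a difference of -2.84 (SE 4.94). For the 19 other protein-coding genes inside the chromosome 6 span, mean coverage was 2.03%, 2.77% and 3.46% in SCAN1, against 1.21% and 2.00% in WT.

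**Figure D4:**
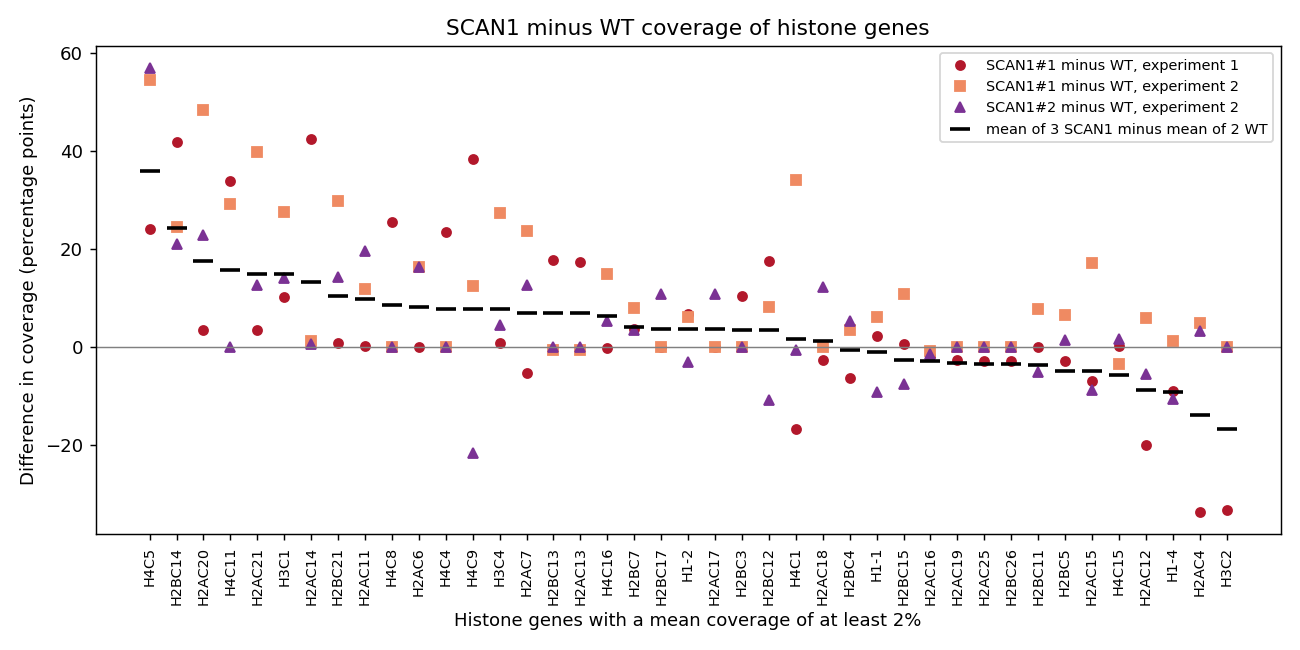
SCAN1 minus WT coverage, in percentage points, of the 41 histone genes with a mean coverage of at least 2%, for each comparison within an experiment (points) and for the group means (bars). H4C5, at the left, is above 0 in all 3 comparisons, most genes have points on both sides of 0 or at 0, and none passed the test.

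Among histone genes, the mean difference between the experiments was larger in size than that between the genotypes. Experiment 2 (3 libraries) was compared with experiment 1 (2 libraries) with genotype in the model. No gene passed an adjusted p of 0.05 (0.0% of all genes tested in each direction), histone genes included. At an unadjusted p of 0.05, 14 of the 41 histone genes were lower in experiment 2 (34.1%), against 17.8% of all genes tested, and 0 were higher, against 3.71%. By sign, 37 of 41 were lower (90.2%), against 61.0%, and 4 were higher (9.76%), against 39.0%. For 9 of the 41 the sign was set by the filter, since they were at 0% in every library of one experiment. Without such genes, 30 of 32 were lower (93.8%), against 61.3% of all genes, and 2 were higher, against 38.7%. Of the 32, 11 were lower at an unadjusted p of 0.05 (34.4%), against 17.3%. The experiments did not overlap for 14 histone genes lower in experiment 2 (34.1%), against 28.1% of all genes tested, and for 0 higher, against 13.2%. In the equal lists, the mean difference of the 41 was -14.1 percentage points and the median -10.7, against -4.94 and -1.14 over all genes tested. Within lines, the mean difference of the 41 was -16.1 in WT and -8.86 in SCAN1#1, against -5.12 and -3.38 over all genes tested. The antibody lot and the experiment cannot be told apart in this design. The cut to equal length was also stricter in experiment 2. The lowest -log10 q kept was 7.74 and 5.56 in SCAN1#1 and SCAN1#2 and 5.55 in WT in experiment 2. In experiment 1 it was 2.00 in SCAN1#1 and 3.97 in WT. Deposited peaks of WT replicate 2 near H4C5, H2BC14, H2AC25 and H2BC26 were removed by this cut. The counts and differences between experiments given here therefore hold for the equal lists.

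H4C15, H2AC19, H2AC25 and H2BC26 shared the smallest adjusted p of the 41, 0.0839 in limma. In the equal lists the last 3 were covered in experiment 1 only, so the filter set the sign of their differences. In the lists as deposited, WT replicate 2 had 11.8% of H2AC25 and 12.1% of H2BC26. H2AC25 and H2BC26 shared a peak in experiment 1, as did H4C15 and H2AC19, so the 4 genes are not separate observations. H4C15 had 2.91% on average in experiment 2 and 35.0% in experiment 1, a difference of -32.0 (SE 3.11). Its RefSeq record spans 16753 bases and contains H2AC19 and H3C15, and its own promoter window matches that of H4C14. That window had 0% under peaks in all 5 libraries. The strongest summits lay 15644 to 17654 bases from the start, so the difference concerns the far end of the record. Coverage in experiment 2 was 0% and 5.19% in the SCAN1 libraries and 3.53% in the WT library. In experiment 1 it was 35.1% in SCAN1 and 34.8% in WT. H4C11 had 29.0% and 0% in SCAN1 and 0% in WT in experiment 2, against 65.5% in SCAN1 and 31.6% in WT in experiment 1, a difference of -42.7 (SE 11.1, limma adjusted p = 0.154).

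H2BC5 had 37.9% and 32.7% in SCAN1 and 31.3% in WT in experiment 2, against 68.7% in SCAN1 and 71.4% in WT in experiment 1, a difference of -36.2 (SE 6.29, limma adjusted p = 0.110). The window at its start was 100% under peaks in all 5 libraries, and its RefSeq record spans 13229 bases. H2BC14 differed by -39.5 (SE 6.51, limma adjusted p = 0.105) and H4C5 by -37.7 (SE 9.61, limma adjusted p = 0.150). H1-2 was the only histone gene higher in experiment 2 in both lines, by 1.87 in WT and 1.17 in SCAN1#1. With genotype in the model, its difference was -1.14 (SE 4.79), and it was 1.52 with line in place of genotype.

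**Figure D5:**
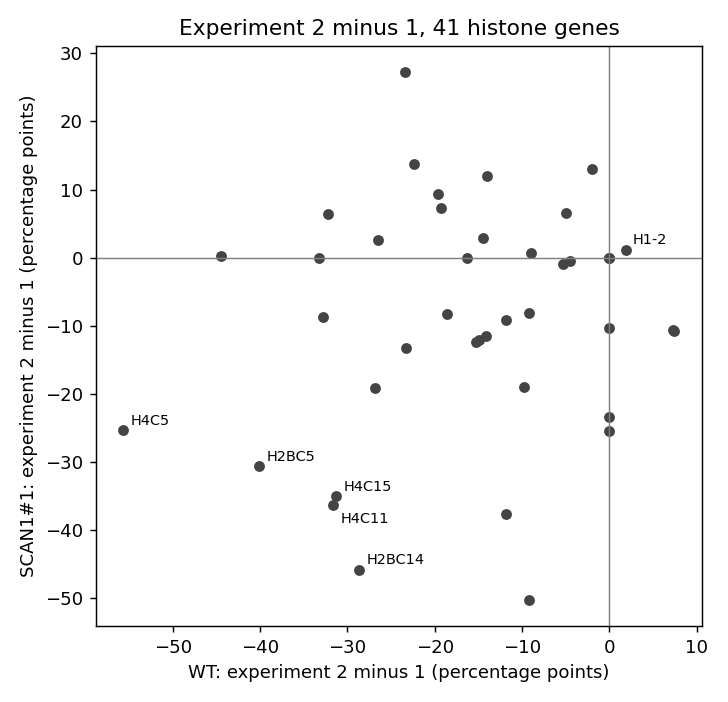
Coverage in experiment 2 minus experiment 1, in percentage points, for WT (horizontal axis) and SCAN1#1 (vertical axis), one point for each of the 41 histone genes with a mean coverage of at least 2%. H4C5, H2BC5, H4C15, H4C11 and H2BC14 lie far below 0 on both axes, and H1-2 alone lies above 0 on both.

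Of the other genes of the histone supply pathway, in 4 lists, 0 passed the limma test at an adjusted p of 0.05 in either comparison. At an unadjusted p of 0.05, 0 did so in SCAN1 against WT, and in experiment 2 against 1 it was 2 replacement histones, 6 transcription and processing genes, 4 chaperones and 9 S-phase genes, against 21.5% of all genes tested. The first 3 counts, of 11, 23 and 18 genes tested, lie near that share. The last, 9 of 24, lies above it, and whether it exceeds the share was not tested. The counts and the share take both directions together. Of the 20 replacement histones, which are made outside S phase too, 11 were tested, and mean coverage was 24.9%, 21.9% and 19.9% in SCAN1, against 25.3% and 19.5% in WT. H1-10, a linker histone variant, had 93.9%, 87.7% and 61.8% in SCAN1, against 98.9% and 61.8% in WT. H3-3B, which encodes H3.3, had 93.4%, 72.2% and 79.3% in SCAN1, against 89.5% and 61.4% in WT. Of the 32 genes for histone transcription and mRNA 3′ end processing, 23 were tested, with means of 17.6%, 14.3% and 11.1% in SCAN1, against 18.0% and 13.0% in WT. SLBP, which binds the histone stem-loop, had 9.66%, 4.12% and 0% in SCAN1, against 8.25% and 3.13% in WT, and was chosen after its values were seen. Of the 24 histone chaperones and assembly factors, 18 were tested, with means of 17.02%, 15.9% and 10.0% in SCAN1, against 19.7% and 12.6% in WT. Of the 27 S-phase and replication genes, 24 were tested, with means of 21.6%, 17.1% and 14.5% in SCAN1, against 22.96% and 15.7% in WT. MCM7, a subunit of the replicative helicase, had 100%, 93.5% and 91.5% in SCAN1, against 100% and 85.0% in WT. In each of these 4 lists replicate 1 libraries had the higher mean in both genotypes.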

How the data were processed

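The 5 peak lists were analysed as deposited, and the members and gene lists were chosen with earlier results of these data known. Per the submitters' processing notes, the tools included BWA 0.7.17-r1188, SAMtools 1.9 and MACS3 3.0.0a6, with the build hg38. The deposited columns used were the fold enrichment ratio at each summit and -log10 p and q, and the deposited score column was not used. Coverage was computed on RefSeq GRCh38.p14 genes with 1 kb added at both ends, from lists cut to 63456 peaks. Genes with a mean of at least 2% were tested with limma 3.58.1 (R 4.3.3, lmFit and eBayes with a trend), with Benjamini-Hochberg adjustment at 0.05, and the test was tried on simulated data.

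Named genes were the most covered, the most enriched, those with the largest differences of constant sign, those without a peak, pairs under shared peaks and up to 4 genes of each other list. Replicate numbers are the experiment numbers of the labels, and same-numbered SCAN1 and WT libraries deviated together from their group means (correlations 0.612, 0.325 and 0.470). Alternatives were the lists as deposited, other gene ends, filters and scale, a -log10 q of at least 5, experiment as a block, and each library left out. An alternative added after the data were seen kept only genes covered in both groups.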

Additional observations from a re-analysis of the deposited data

Results flagged for a closer look

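In 5 of the 41 tested histone genes the SCAN1 lines moved in opposite directions against WT, SCAN1#1 above WT in both experiments and SCAN1#2 below it. SCAN1#2 minus WT was -21.5 percentage points for H4C9, -10.7 for H2BC12, -9.07 for H1-1, -7.47 for H2BC15 and -3.00 for H1-2. SCAN1#1 minus WT in experiments 1 and 2 was 38.3 and 12.4 for H4C9, 17.5 and 8.18 for H2BC12, 2.18 and 6.20 for H1-1, 0.708 and 10.8 for H2BC15, and 6.81 and 6.12 for H1-2. The H2BC12 record contains H4C9, so these genes share bases. The difference between the lines was not tested, SCAN1#2 has 1 library, and both comparisons of experiment 2 share WT replicate 2. The share of all genes tested with this pattern was not counted, so the 5 genes are not shown to be particular to the histone genes.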

How the results depend on the processing

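On the log2(percent + 1) scale, 4 genes passed in SCAN1 against WT and 2 in experiment 2 against 1, and 0 of these were histone genes. Every other alternative run gave 0 genes, the fit with experiment as a replicate block included, which changed no call, gave 0 genes and moved the mean SCAN1 minus WT difference of the tested histone genes to 6.34. The mean SCAN1 minus WT difference of the tested histone genes was between -4.063 and 12.035 with 1 library left out, and was -0.227 without SCAN1#1 replicate 1 and -4.063 without WT replicate 2. Without 1 library, the mean of experiment 2 minus 1 stayed between -16.258 and -12.478. Of single genes, H2AC20 in SCAN1 against WT ranged from -4.745 (without WT replicate 2) to 39.762, H2AC16 from -7.413 to 1.732 (without WT replicate 1), and H1-2 in experiment 2 against 1 from -3.387 to 1.867, with 1.520 when line replaced genotype. With 1 library left out, SCAN1 minus WT was between 8.02 and 63.7 for H4C5, 8.45 and 38.7 for H2BC14, 7.62 and 22.05 for H3C1, and 3.70 and 26.1 for H2AC21. In the lists as deposited H2BC14 differed by 6.85 between genotypes and by -18.6 between experiments. The cause was not tested. Depth is unknown, so a missing peak has no lower limit of detection.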

Other observations

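Several of the tested histone genes were reached in few libraries. In the equal lists, H3C2 was covered to 0% in each SCAN1 library, against 33.2% and 0% in WT, and H4C8 to 25.6%, 0% and 0% in SCAN1, against 0% in both WT libraries. H2AC25 and H2BC26, the head-to-head pair of the minor chromosome 1 cluster, were reached in both experiment 1 libraries and in neither genotype of experiment 2 in these lists, with 12.2% and 12.5% in SCAN1#1 replicate 1, against 14.98% and 15.3% in WT replicate 1. These genes were picked after their values were seen.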
